A study of Mus musculus with 80 samples.

Results

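AgRP neurons are the cells of the arcuate nucleus of the hypothalamus that make agouti-related peptide (Agrp) and neuropeptide Y (Npy) and promote feeding. The data described here are 13 of the 80 RNA-seq libraries of the series: all those whose labels give the genotype WT;BMAL1fx, in which Bmal1 (gene symbol Arntl, a core clock gene) is floxed and by label not deleted, and which belong to the leptin experiment. After leptin there were 3 libraries at ZT2 and 3 at ZT14. After the vehicle PBS there were 4 at ZT2 and 3 at ZT14. ZT counts hours after lights on, so that ZT2 lies early in the rest phase and ZT14 early in the active phase of a mouse. The source of all groups is given as AgRP+ neurons of the arcuate nucleus, the protocols describe sorting of green cells from NPY-GFP mice, and RNA was amplified with SMART-seq v4 before Nextera XT library preparation. The dose and route of leptin, the interval between leptin and collection, and the age and sex of the mice are not given in the sources used here. Replicates are numbered, but no label ties them to different mice, and the p-values therefore reflect only how much these libraries vary, part of which may be technical. A further 12 libraries of the same experiment, labelled as Bmal1 knockouts of AgRP neurons, serve only for comparison.

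Leptin, the hormone of fat tissue, binds the leptin receptor (Lepr) on AgRP neurons, and its long form activates the kinase Jak2. Jak2 phosphorylates STAT transcription factors, above all Stat3, which enter the nucleus and bind DNA. Suppressors of cytokine signalling (the SOCS proteins) and tyrosine phosphatases such as Ptpn1 end the signal, and AgRP neurons are known as cells that leptin restrains.

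The 13 libraries held 5.93 to 34.0 M recovered reads (5.93 to 16.5 after PBS, 11.0 to 34.0 after leptin), and 14445 to 16310 genes lay above 0. The library of the lowest depth was PBS ZT14 replicate 3 and that of the highest was leptin ZT2 replicate 3. At ZT2 every leptin library (17.4 to 34.0 M) was deeper than every PBS library (10.9 to 16.1 M), while at ZT14 the ranges overlapped (11.0 to 14.4 M after leptin, 5.93 to 16.5 M after PBS). The difference in depth did not pass an exact permutation test within times (two-sided p = 0.15, adjusted p = 0.442 over depth and the marker sums), and the part of depth in the results was not tested. Hsd11b2 lay between 0 and 19.7 in the controls and between 2092 and 3749 in the knockouts, and so separated the labelled genotypes. Arntl, the gene that the labels name as deleted, did not separate them: it lay between 223 and 1211 in the controls and between 108 and 526 in the knockouts. Agrp lay between 67526 and 144168. Sex-linked genes showed the pattern of male cells. The Y chromosome gene Ddx3y lay between 2773 and 3766 after leptin and between 2668 and 4156 after PBS. Xist, which is expressed in female cells, lay between 0 and 6.24 after leptin and at 0 after PBS. Defining markers of several other cell types were absent or near 0: the microglial genes C1qa and C1qc, the oligodendrocyte genes Mog and Cldn11 and the haemoglobin genes Hba-a1 and Hba-a2 were at 0 in all 13 libraries, and the endothelial gene Cldn5 reached at most 2.05. In a principal component analysis, leptin ZT14 replicate 1 (-74.4) and PBS ZT14 replicate 1 (-57.3) stood lowest on the first component, which held 25.7% of the variance.

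Leptin raised 10 of the 13476 genes tested (0.0742%) when both times were pooled, and lowered none. All values are deposited normalised read counts. Differences are leptin minus PBS on the log2(value + 1) scale, which understates the change of low genes, tested with limma (adjusted over every gene tested, threshold 0.05). In bulk RNA of sorted cells, more RNA per cell and a higher share of cells that make a transcript cannot be told apart.

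Steap4, which encodes a membrane metalloreductase of iron and copper (chr5:7960457-7982213, plus strand, GRCm38), went from near absence to a clear signal. At ZT2 it stood at 154, 293 and 408 after leptin and at 1.03, 0, 0 and 0 after PBS. At ZT14 it stood at 116, 334 and 407 after leptin and at 4.49, 4.07 and 0 after PBS. The difference was 7.13 ± 0.51 (SE, adjusted p = 4.2e-06). In recovered reads, the 6 leptin libraries held 2426 Steap4 reads and the 7 PBS libraries 11, or 22.5 against 0.119 per M reads, a ratio of 188 (95% exact interval 105 to 377, counting error only). The groups did not overlap at either time.

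Arid5a, a member of the AT-rich interaction domain family that also binds and stabilises messenger RNA (chr1:36307733-36324029, plus strand), rose 9.91-fold (95% interval 5.68 to 17.3). It stood at 607, 1762 and 2934 after leptin at ZT2 and at 286, 1155 and 1115 at ZT14. The 7 PBS libraries lay between 61.4 and 172, below every leptin library (difference 3.31 ± 0.38, adjusted p = 0.00142). The related gene Arid5b, whose protein binds DNA (chr10:68092520-68278740, minus strand), moved the same way over a narrower range. Its leptin libraries lay between 674 and 1161 (median 729) and its PBS libraries between 248 and 512 (median 403), with a difference of 1.25 ± 0.19 (adjusted p = 0.0151).

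Rnf122, a RING-type ubiquitin ligase gene (chr8:31111820-31131482, plus strand), stood at 265, 527 and 1106 after leptin and at 68.7, 71.8, 78.1 and 80.8 after PBS at ZT2. At ZT14 the values were 295, 339 and 247 against 106, 83.8 and 132. The difference was 2.19 ± 0.31 (adjusted p = 0.0116), and no leptin library reached down into the PBS range. Ripk1, a kinase of tumour necrosis factor receptor signalling that can direct cell death or survival (chr13:34002363-34037147, plus strand), rose 3.10-fold (95% interval 2.26 to 4.26). Its leptin values ran from 146 to 371 (median 285) and its PBS values from 61.9 to 124 (median 86.2), again without overlap (1.63 ± 0.22, adjusted p = 0.00591).

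Of the other genes that rose, Socs2, a SOCS family gene best known for restraining growth hormone signalling (chr10:95385362-95417180, minus strand), had the smallest difference and narrow groups. It stood at 1444, 1554 and 1541 after leptin at ZT2 and at 1331, 1337 and 1359 at ZT14, against 700 to 1095 after PBS (0.78 ± 0.13, adjusted p = 0.0207). Gbp7, an interferon-inducible GTPase gene (chr3:142530342-142550149, plus strand), lay between 240 and 434 after leptin and between 121 and 176 after PBS (1.08 ± 0.16, adjusted p = 0.0151). It belongs to a family of similar genes between which reads can be split, and its level is uncertain to that extent.

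Gcc1, which encodes a golgin of the trans-Golgi network (chr6:28416091-28428390, minus strand), lay between 292 and 668 after leptin and between 98.7 and 248 after PBS (1.56 ± 0.25, adjusted p = 0.0207). Elovl1, which elongates very long chain fatty acids (chr4:118428093-118432953, plus strand), and Ptger2, the prostaglandin E2 receptor EP2 (chr14:44988195-45003820, plus strand), were the 2 genes of the 10 whose groups overlapped. Elovl1 lay between 583 and 1771 after leptin and between 295 and 678 after PBS (1.37 ± 0.22, adjusted p = 0.0207). Ptger2 lay between 191 and 786 after leptin and between 64.6 and 229 after PBS (1.87 ± 0.32, adjusted p = 0.0320). In each, 5 of the 6 leptin libraries stood above all 7 PBS libraries.

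The strand setting of the counting is not stated, and some of these genes overlap a gene on the other strand, so that the reads of both cannot be told apart there. Ripk1 shares 432 bases with Serpinb6a, which differed by -0.03 between leptin and PBS. Gcc1 shares 3043 bases with Arf5, which differed by -0.01. Neither Serpinb6a nor Arf5 passed the test. Ripk1 also shares 1366 bases with the pseudogene Gm17083, and Ptger2 shares 15626 bases with the antisense gene Gm17173, for both of which no value is given here.

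**Figure D1:**
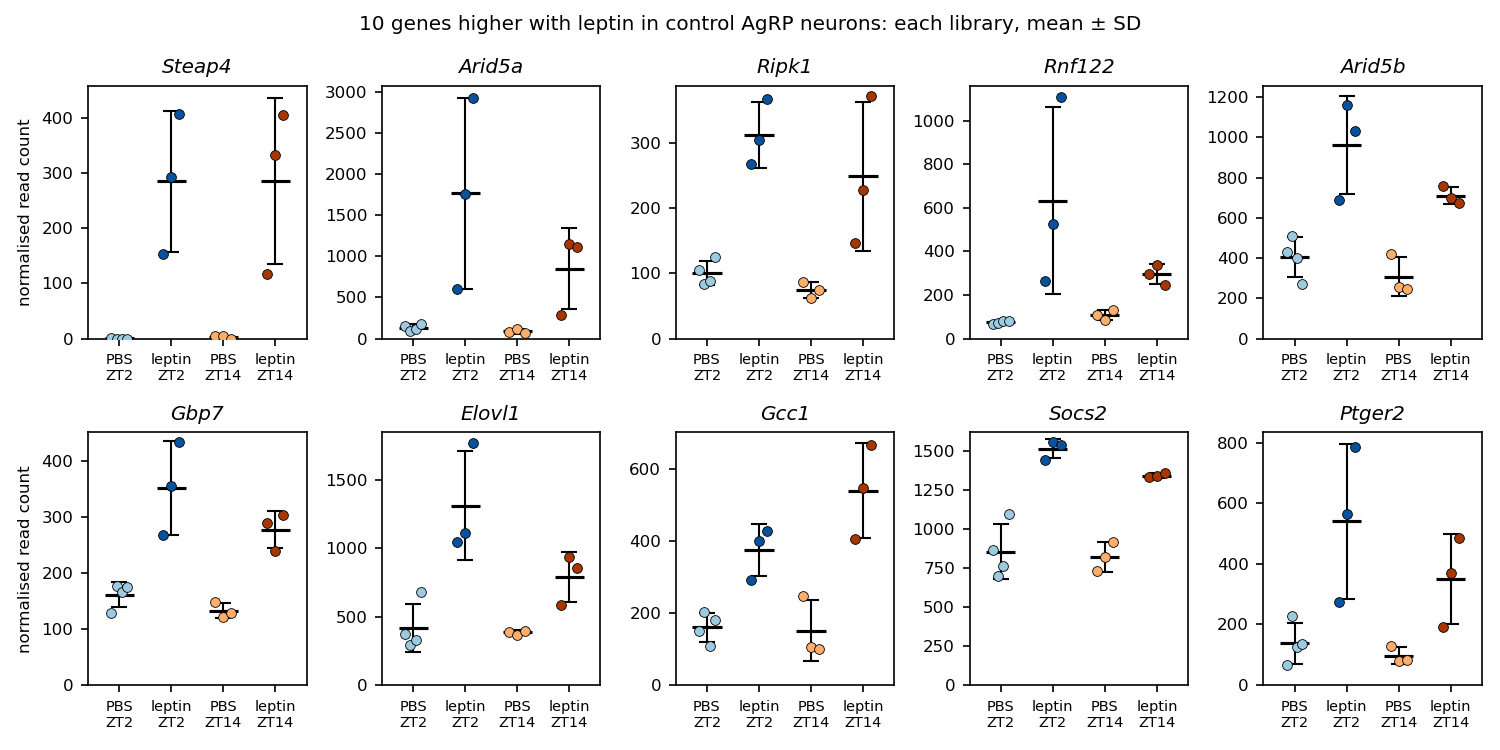
The normalised read count (vertical axis, linear, from 0) of the 10 genes that rose is plotted for each of the 13 control libraries by treatment and time, with the mean as a bar and the SD as whiskers. Steap4 lies at 4.49 or below in every PBS library and at 116 or above in every leptin library, and in Elovl1 and Ptger2 the highest PBS library lies above the lowest leptin library.

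The leptin libraries did not stand at the same level in the 10 genes. Leptin ZT2 replicate 1 was the lowest of its time in 10 of the 10 genes, leptin ZT2 replicate 3 was the highest of all 6 in 6 genes, and leptin ZT14 replicate 1 was the lowest of all 6 in 6 genes. On the first principal component, leptin ZT14 replicate 1 stood lowest (-74.4). Leptin ZT2 replicate 1 stood there at -23.4, against 33.9 and 37.8 for leptin ZT2 replicates 2 and 3. The part of such general variation in the levels of the 10 genes was not tested. Leaving out leptin ZT14 replicate 1 gave 17 called genes, with all 10 among them. Leaving out leptin ZT2 replicate 2 gave 3, and leaving out leptin ZT2 replicate 3 or leptin ZT14 replicate 3 gave 4 each. Without PBS ZT2 replicate 1, PBS ZT2 replicate 3 or leptin ZT14 replicate 2 the count was 6 each. Steap4 and Arid5a passed in 25 of 25 alternative analyses, Ripk1 and Rnf122 in 24, Arid5b in 22, Gbp7 in 21, Elovl1 in 18, Gcc1 and Socs2 in 17 and Ptger2 in 14.

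The stretch before the start of a gene is shown for the genes that rose together and hold a match to TTCNNNGAA, the palindromic consensus of STAT binding. It was searched on both strands in the 250 bases before each RefSeq start (GRCm38.p6), and of the 10 genes 8 had such a window, all but Rnf122 and Socs2. Matches were found in 4 of their 10 windows, 1 window in each of 4 genes, against 7.02% of all 32851 windows and 6.03% of the 12281 windows of tested genes. A match is a run of letters and not a shown site. The printed runs go 5′ to 3′ along the gene's strand, the capitals mark the matches, and bases annotated as untranslated exon are left out. They are Steap4 (chr5:7960222-7960456, plus strand, the match beginning 116 bases before the start), Gbp7 (chr3:142530086-142530335, plus strand, matches 106 and 87 bases before), Arid5b (chr10:68278741-68278976, minus strand, 172 bases before) and Ripk1 (chr13:34002795-34002873, plus strand, 11 bases before).
Steap4: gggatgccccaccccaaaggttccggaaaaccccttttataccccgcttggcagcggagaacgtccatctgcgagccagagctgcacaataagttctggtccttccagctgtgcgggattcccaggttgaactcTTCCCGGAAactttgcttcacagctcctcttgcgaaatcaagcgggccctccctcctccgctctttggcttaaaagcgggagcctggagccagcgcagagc
Gbp7: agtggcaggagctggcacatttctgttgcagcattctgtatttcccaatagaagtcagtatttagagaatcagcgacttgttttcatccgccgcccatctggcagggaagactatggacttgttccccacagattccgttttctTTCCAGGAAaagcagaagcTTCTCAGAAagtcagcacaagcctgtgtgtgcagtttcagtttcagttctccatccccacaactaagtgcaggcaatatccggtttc
Arid5b: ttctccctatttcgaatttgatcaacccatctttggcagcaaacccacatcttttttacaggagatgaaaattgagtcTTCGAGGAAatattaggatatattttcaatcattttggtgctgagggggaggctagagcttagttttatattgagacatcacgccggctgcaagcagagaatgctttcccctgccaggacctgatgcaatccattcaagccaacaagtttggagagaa
Ripk1: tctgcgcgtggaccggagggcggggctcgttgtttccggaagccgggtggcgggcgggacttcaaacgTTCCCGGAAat
Ripk1 has 2 annotated starts, and the window of the other holds no match. The second match of the window shown for Ripk1 begins 108 bases before the start, within an exon of Serpinb6a on the other strand, and is not printed. Windows of Arid5a, Elovl1, Gcc1 and Ptger2 hold no match. Among genes that did not pass the threshold, the windows of Socs3 and Serpina3i hold 1 match each, 154 and 102 bases before the start. That of Cish holds none.

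Beyond these 10 genes, the number called depended on the method. At an unadjusted limma p under 0.05 there were 454 of the 13476 genes tested (272 higher, 182 lower), a share below 0.05 itself. edgeR's quasi-likelihood test on recovered reads called 10 genes, the same 10. DESeq2 called 61 (55 higher, 6 lower) and limma with weights for each library called 81 (68 higher, 13 lower), both with all 10 among them. With the replicate number as a block within each time, limma called 33 (30 higher, 3 lower), again with all 10. All 6 leptin libraries lay above all 7 PBS libraries in 23 genes (0.171% of those tested), and below them in 5 (0.0371%).

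**Figure D2:**
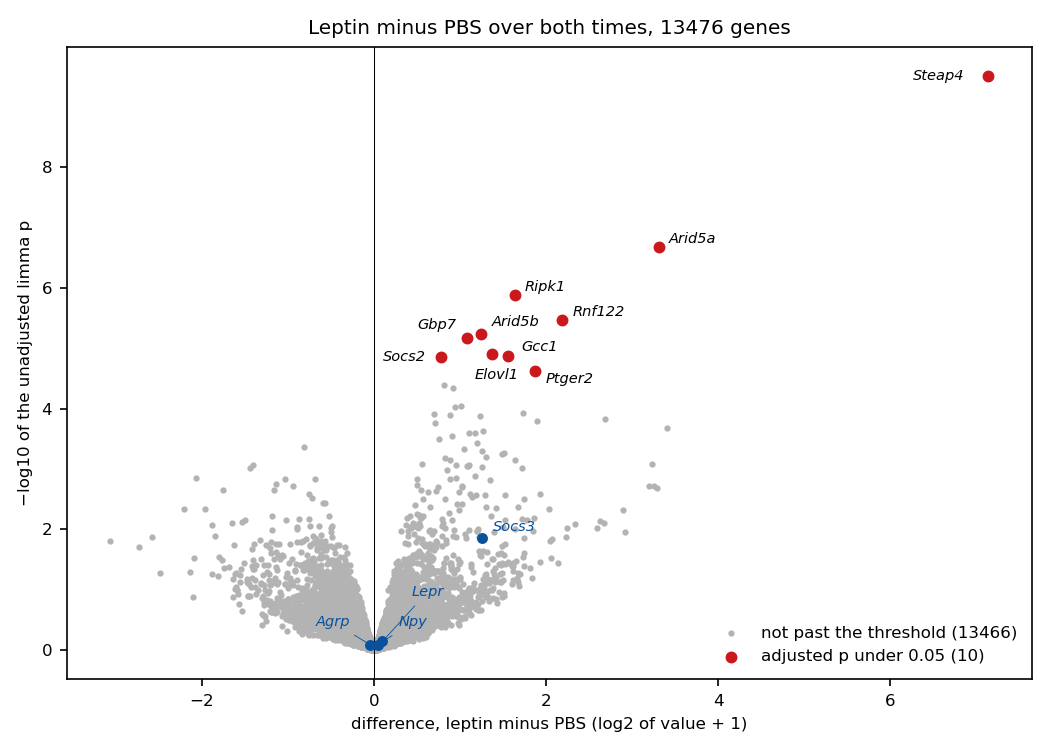
Each of the 13476 tested genes is a point, with its log2 difference between leptin and PBS on the horizontal axis and −log10 of its unadjusted limma p on the vertical axis. The 10 red points are the genes past the threshold and all lie to the right of 0, with Steap4 far from the rest, while Agrp, Npy and Lepr (blue) lie near the origin.

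Several genes came close to the threshold without passing it. Rnd3 and Nr3c2 were chosen after their values were seen, as were the lower genes of this paragraph. Rnd3 differed by 0.82 ± 0.15 (adjusted p = 0.0501). Serpina3i, of a cluster of near-identical serine protease inhibitor genes between which reads can be split, differed by 0.92 ± 0.16 (adjusted p = 0.0516), with 6 of 6 leptin libraries above all PBS libraries. Sgk1, a kinase gene known to respond to glucocorticoids, stood at 5161 to 5884 after leptin and 1741 to 4331 after PBS at ZT2, and at 5703 to 6203 against 2507 to 3885 at ZT14 (1.01 ± 0.19, adjusted p = 0.0902). Nr3c2, the mineralocorticoid receptor gene, differed by 0.76 ± 0.17 (adjusted p = 0.162), also with 6 of 6 above. In the other direction, the zinc finger genes Zfp61 (-0.68) and Zfp791 (-1.13) and Trim8 (-0.35), a ubiquitin ligase gene, were among the 5 whose leptin libraries all lay below the PBS libraries, the others being 4831440E17Rik (-1.40) and Gm15417 (-0.55). None of these 5 (0.0371% of genes tested) passed the threshold. In the knockouts alone they differed by -0.90 (Zfp61), -1.08 (Zfp791), 0.06 (Trim8), -0.73 (4831440E17Rik) and 0.05 (Gm15417).

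Whether the response depends on the time of day was tested with separate means for the 4 groups. At ZT2, 3 genes rose (0.0223% of those tested, 291 at an unadjusted p under 0.05): Steap4 by 7.80 (adjusted p = 0.00015), Rnf122 by 2.83 (adjusted p = 0.0131) and Arid5a (adjusted p = 0.0491), which averaged 1768 ± 1163 (SD) after leptin and 133 ± 38.2 after PBS. At ZT14, 1 gene rose (0.00742%, 394 at an unadjusted p under 0.05): Steap4 by 6.38 (adjusted p = 0.0046). The difference between the 2 times passed for 0 genes (0%) with limma, edgeR and DESeq2, with 227 at an unadjusted limma p under 0.05. Among the 10 genes, Rnf122 had a ZT14 minus ZT2 difference of -1.37 ± 0.54 (unadjusted p = 0.0239), with its higher leptin values at ZT2. The calls at a single time rested on few libraries. Without leptin ZT14 replicate 2 or 3 no gene was called at ZT14, without leptin ZT14 replicate 1 or PBS ZT14 replicate 1 there were 2, and without leptin ZT2 replicate 2 or PBS ZT2 replicate 1, 2 or 3 there was 1 at ZT2.

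Genes of leptin signalling itself were next described from lists. These and the later lists were drawn up with earlier results of these data known, so that counts within them are no independent evidence. Over all genes tested, the median difference was -0.0018 and 6697 of 13476 differences were above 0. Of the 25 tested genes of the receptor, JAK and STAT list, 0 were called, 17 differences were above 0 and the median was 0.10. Lepr differed by 0.10 ± 0.26 (95% interval -0.46 to 0.66) and Jak2 by 0.06 ± 0.26. Stat3, the main transcription factor of the pathway, lay between 3642 and 8734 after leptin and between 4090 and 7838 after PBS (0.18 ± 0.21, 95% interval -0.27 to 0.64). Phosphorylation of these proteins, the step at which the pathway is switched on, is not seen in RNA.

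In that list 5 of 25 genes had an unadjusted p under 0.05, against 454 of 13476 over all genes tested, and 4 of them are described here. Stat2, which acts in interferon signalling, differed by 1.03 ± 0.30 (unadjusted p = 0.00372). Il6st, the shared receptor subunit gp130 of the interleukin-6 family, differed by 0.48 ± 0.14 (unadjusted p = 0.00388). Ptpn1, the phosphatase that acts on Jak2, differed by 0.72 ± 0.20 (unadjusted p = 0.00231). Sh2b2, an adaptor of Jak2, differed by -0.73. None of these 4 genes passed the adjusted threshold.

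Among the 8 tested SOCS genes, 1 was called (Socs2), 7 differences were above 0 and the median was 0.55. Socs3, the feedback inhibitor of leptin signalling, was 182, 333 and 818 after leptin and 152, 61.5, 165 and 197 after PBS at ZT2. At ZT14 it was 63.9, 359 and 289 after leptin and 47.6, 112 and 149 after PBS. Its groups overlapped at both times, in 4 of 6 leptin libraries it lay above all PBS libraries, and the difference of 1.26 ± 0.45 (unadjusted p = 0.0136) did not pass. Cish, another inhibitor of JAK and STAT signalling, differed by 1.20 ± 0.27 (adjusted p = 0.177), and Socs1 by 1.69 ± 0.81.

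Of 30 genes listed as targets of STAT3 or leptin, 26 were tested and 3 were called (Steap4, Arid5a and Rnf122), 21 differences were above 0 and the median was 0.34. The list was drawn up with earlier results of these data known, so that its calls are no independent evidence. Uncalled members with an unadjusted p under 0.05 included Irf1, a transcription factor gene of the interferon response (0.75, unadjusted p = 0.00201), Bcl3, a nuclear partner of NF-kB (0.79, unadjusted p = 0.00659), Cd24a, a cell surface glycoprotein gene (0.67, unadjusted p = 0.0272), and Atf3, a stress-responsive transcription factor gene (0.90, unadjusted p = 0.0408). Other members lay near 0. Serpina3n differed by 0.00 ± 0.13, Asb4 by 0.06 ± 0.13 and Fos, an immediate early gene often used to mark neuronal activity, by -0.13 ± 0.25.

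**Figure D3:**
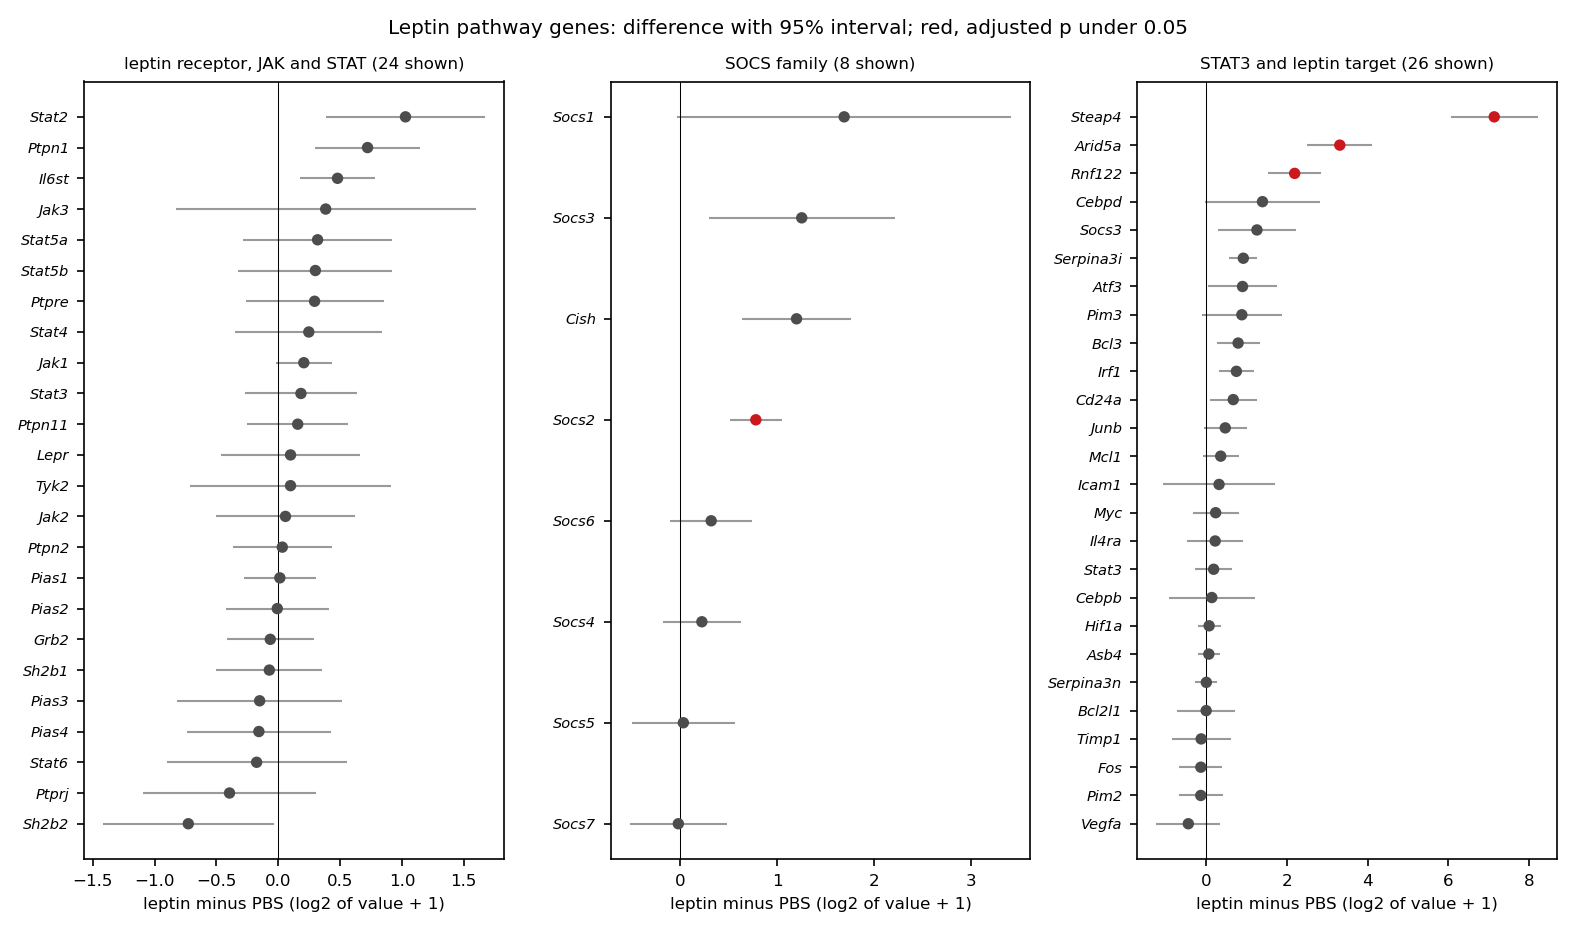
The log2 difference between leptin and PBS (horizontal axis, dot) with its 95% interval (line) is drawn for genes of 3 lists (number shown in brackets), with genes past the threshold in red. In the left panel the dots lie on both sides of 0, and in the middle and right panels the 4 red genes are Socs2, Steap4, Arid5a and Rnf122, with Socs3 at 1.26 and not red.

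Genes of the interferon response, many of which are switched on through STAT proteins, included 1 called gene, Gbp7, among 29 tested of 36. In that list 21 differences were above 0 and the median was 0.32, with differences from -1.21 to 1.62. An unadjusted p under 0.05 was found in 8 of the 29 (454 of 13476 over all genes tested). The list was likewise drawn up with earlier results known, so that this share is no independent evidence. Irf1 and Stat2 belong to this list as well as to those already described. A further 4 uncalled genes with an unadjusted p under 0.05, of which Parp9, Mx2 and Irf9 were chosen after their values were seen, were Rtp4, a chaperone of receptor trafficking (1.29 ± 0.36), Parp9, an interferon-induced gene (1.52 ± 0.43), Mx2, an antiviral GTPase gene (1.21 ± 0.41), and Irf9, the partner of STAT2 (0.42 ± 0.14). None of these 4 passed the adjusted threshold.

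The peptides that define the neurons did not pass the test. Agrp lay between 67526 and 123095 after leptin and between 74119 and 144168 after PBS, a difference of -0.05 ± 0.19 (95% interval -0.45 to 0.35). Npy differed by 0.04 ± 0.19 (95% interval -0.35 to 0.44). The ranges of leptin and PBS libraries overlapped in both genes. Of 16 identity genes, 0 were called and the median was 0.021. Mc3r, a melanocortin receptor gene, had the smallest p of them (0.50 ± 0.16, unadjusted p = 0.00547), while Npy2r, an inhibitory receptor for neuropeptide Y, differed by 0.22 and Ghsr, the ghrelin receptor, by 0.11.

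Peptide processing and release showed no called gene either. Of 15 granin and peptide processing genes, 0 were called and the median was 0.13, with the prohormone convertase gene Pcsk1 at 0.23 ± 0.21 and the carboxypeptidase gene Cpe at 0.23 ± 0.36. Of 21 genes of vesicle release, 0 were called and 16 differences were above 0, with a median of 0.055. Of 19 peptide hormone receptor genes, 0 were called and the median was 0.19.

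Core clock genes were considered because the study varies time and Bmal1. Of 18, 0 were called, 8 differences were above 0 and the median was -0.033. An unadjusted p under 0.05 was found in 5 of the 18, against 454 of 13476 over all genes tested. Arntl differed by 0.11 ± 0.29, Per1 by -0.26 and Per2 by -0.15. Dbp, an output gene of the clock, had a difference of -0.94 ± 0.25 (adjusted p = 0.413) and Nr1d1, a repressor of Arntl, one of -0.58 (unadjusted p = 0.0217). Bhlhe40, a repressor in the same network, differed by 1.17 ± 0.25 (adjusted p = 0.138). None of them passed.

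The remaining lists held 0 called genes. Immediate early genes had a median of -0.10 (18 tested), genes of insulin, PI3K and FoxO signalling 0.049 (25 tested), glucocorticoid response genes -0.26 (13 tested, of which 3 differences were above 0) and cholesterol synthesis genes -0.24 (18 tested, of which 2 were above 0). In the glucocorticoid list Sgk1 was the 1 gene with an unadjusted p under 0.05. Cytosolic ribosomal protein genes (77 tested) had a pooled median of -0.0014, with 62 differences above 0 at ZT2 (median 0.077) and 12 at ZT14 (median -0.097). Oxidative phosphorylation genes (82 tested) had a pooled median of -0.038, with 57 differences above 0 at ZT2 (median 0.079) and 10 at ZT14 (median -0.18). None of these genes was called at either time or in the difference between times. Over all genes tested, 6795 of 13476 differences were above 0 at ZT2 and 6512 of 13476 at ZT14. The part of general variation between libraries in the counts of these lists was not tested. Of 65 potassium channel genes, 39 differences were above 0 with a median of 0.028, and among 18 glutamate receptor genes 15 were above 0 with a median of 0.10.

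**Figure D4:**
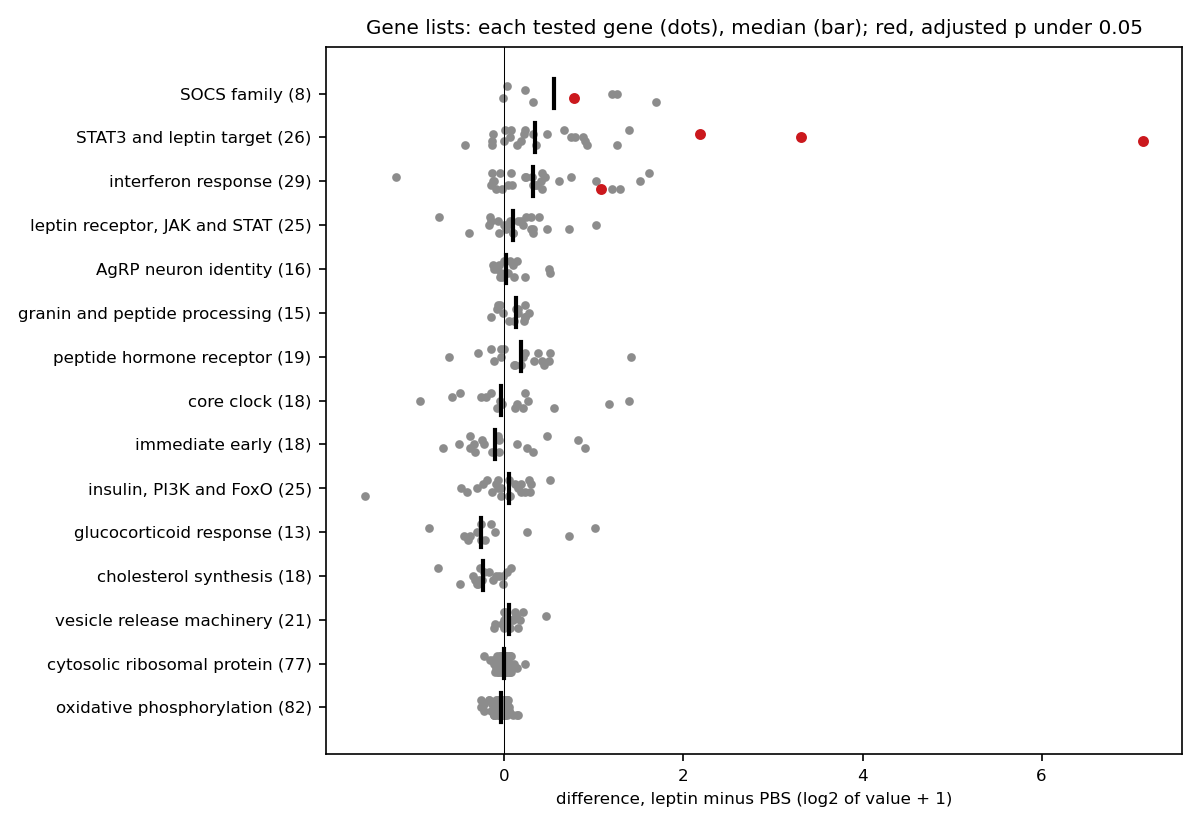
Each dot is a tested gene of 1 of 15 lists (number tested in brackets), placed by its log2 difference between leptin and PBS on the horizontal axis, and each black bar is the list's median. Red dots are called genes, found in the SOCS, STAT3 and leptin target and interferon lists, and the dots of the ribosomal protein and oxidative phosphorylation lists crowd about 0.

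Markers of neighbouring cells were given the same treatment. None of the marker genes tested was called, and no summed marker level passed the exact permutation test (lowest adjusted p = 0.442). Of 4 tested genes of the POMC neuron list, 1 difference was above 0, and the summed level of the 6 listed genes lay between 3154 and 6496 after leptin and between 3900 and 7871 after PBS. Pomc, the defining gene of the arcuate neurons that oppose AgRP neurons, was 862, 569 and 2177 after leptin and 426, 458, 412 and 426 after PBS at ZT2. At ZT14 it was 624, 390 and 902 after leptin and 459, 249 and 377 after PBS. The groups overlapped through leptin ZT14 replicate 2, and the difference was 1.03 ± 0.28 (adjusted p = 0.424). Of 9 tested markers of other hypothalamic neurons, 3 differences were above 0, with sums of 7346 to 22046 after leptin and 11997 to 40406 after PBS. Gal, a neuropeptide gene among them, differed by -0.76 (unadjusted p = 0.00663). Of 10 tested astrocyte markers, 2 differences were above 0, with a median of -0.63. The summed level of the 11 listed genes was 3097 to 4200 after leptin and 3106 to 4379 after PBS, most of it from Aldoc (2870 to 3905 and 2362 to 3729), and the astrocyte gene Gja1 lay between 0 and 13.6 after leptin and between 0 and 273 after PBS. The part of such cells in the 10 called genes was not tested.

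The leptin difference in controls was set against that in the 12 Bmal1 knockout libraries (6 after leptin, 6 after PBS). In the knockouts alone, leptin raised 27 and lowered 1 of 13352 genes tested (28 in all, 0.21%). The 1 lower gene was Gpr6, an orphan receptor gene chosen after its values were seen (-1.81, adjusted p = 0.0079), which in controls differed by -1.04 ± 0.27 (adjusted p = 0.362). Of the 10 genes raised in controls, 6 were called in the knockouts as well: Steap4, Arid5a, Rnf122, Arid5b, Elovl1 and Socs2. The other 4 had knockout differences of 2.13 ± 0.50 (Ripk1), 1.60 ± 0.41 (Ptger2), 1.03 ± 0.28 (Gcc1) and 0.60 ± 0.34 (Gbp7). All 10 differences had the same sign in both genotypes. Among the 444 genes with an unadjusted p under 0.05 in controls that were also tested in the knockouts, 328 (73.9%) had the same sign, against 5876 of 13136 (44.7%) over all genes tested in both. The share was 224 of 268 (83.6%) for genes higher in controls and 104 of 176 (59.1%) for those lower.

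The difference of the leptin response between genotypes was tested in a fit to all 25 libraries. With limma and with edgeR, 0 of 13942 genes passed (0%, 663 at an unadjusted limma p under 0.05), and DESeq2 called 1, Socs2. Socs2 rose by 0.78 ± 0.13 in controls and by 1.65 ± 0.15 in knockouts, a controls minus knockouts difference of -0.86 ± 0.18 (unadjusted p = 5.78e-05, adjusted p = 0.807). For Steap4 that difference was 0.63 ± 1.11 (95% interval -1.66 to 2.91), too wide to separate similar from several-fold different responses. Leaving out 1 library at a time, the count in the knockouts ranged from 18 (without knockout leptin ZT2 replicate 2 or knockout leptin ZT14 replicate 3) to 35, and the knockout term of the fit to all 25 libraries called 69 genes, 59 higher and 10 lower.

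**Figure D5:**
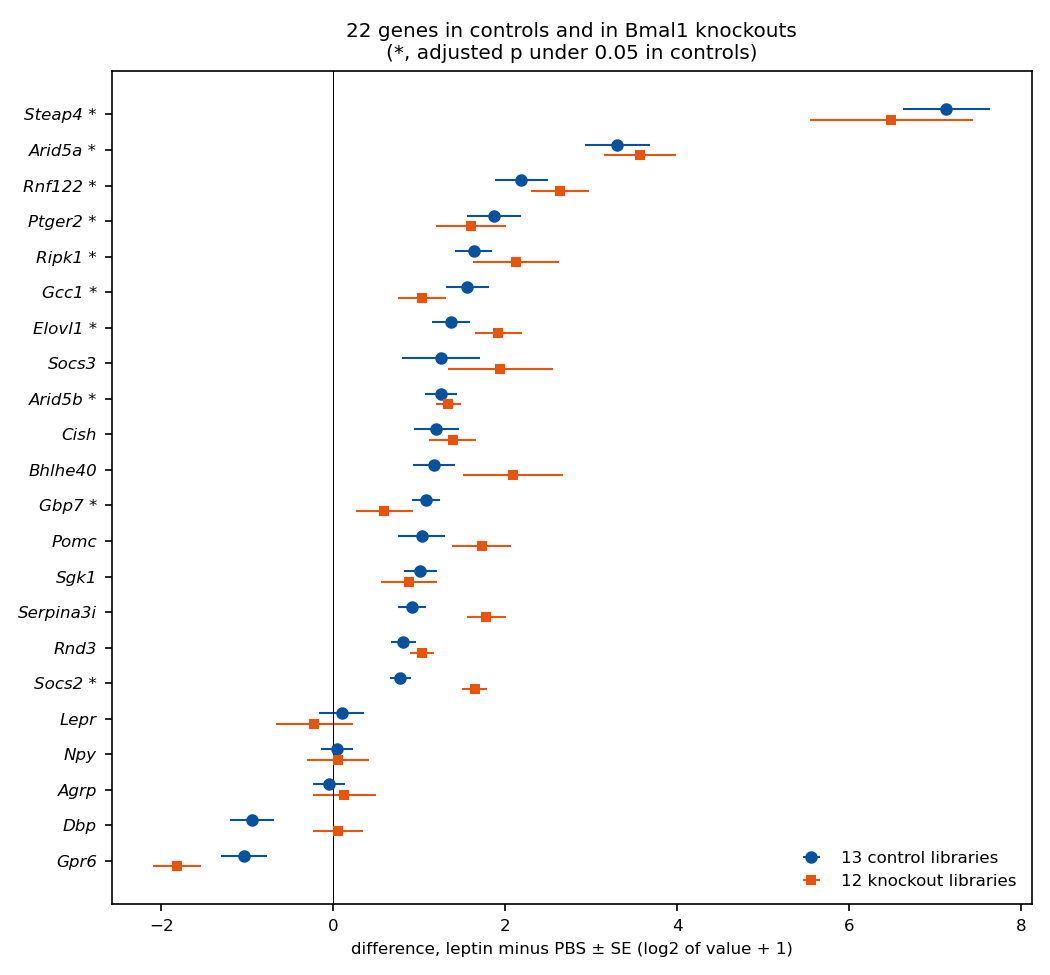
The log2 difference between leptin and PBS with its standard error is drawn for 22 genes in the 13 control libraries (blue circles) and the 12 knockout libraries (orange squares), with an asterisk on the 10 genes called in controls. The bars of Steap4 and Arid5a lie near each other in both genotypes, those of Socs2 lie apart at 0.78 and 1.65, and those of Agrp, Npy and Lepr lie on 0.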

How the data were processed

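RNA-seq values of 23337 genes were taken from 1 deposited table of 80 libraries. The authors deposited normalised counts (unit: signal), read counts per gene scaled by 1 factor for each library. The submitters' processing notes name the mm10 build, STAR 2.5.1, R 3.5.1, DESeq, DESeq2, Subread and featureCounts without their roles. Low values were whole multiples of 1 step in each control library, and all values divided by it were whole within 0.1, which gave the recovered reads.

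limma 3.58.1 (limma-trend, R 4.3.3) was fitted to log2(value + 1) with ZT as a term, for genes at 10 or more in at least 3 libraries, with Benjamini-Hochberg adjustment and a threshold of 0.05. Alternatives were edgeR 4.0.16 and DESeq2 1.42.0 on recovered reads, pseudocounts of 0.5 and 8, other filters and scaling, array weights, replicate blocks and leaving out each library. Gene positions are from GENCODE M21.

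Members and lists were chosen with earlier results of these data known. Named genes were those past the threshold (at most 15 in each direction), fixed genes, members of 3 pathway lists and up to 4 called or 2 uncalled members of other lists. Others were named after their values were seen. A few genes are not reported here.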

Additional observations from a re-analysis of the deposited data

Results flagged for a closer look

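In the 4 PBS libraries at ZT2, the only control group large enough to check, 1 library stood far from the other 3 in 10 of 84 genes named. Chance gives about 1 in 20 for normally distributed values. The check used values without logarithms, for which that rate need not hold, so the number of flags is not read as an excess. PBS ZT2 replicate 1 stood high for Atf3 (4425, the others 824 to 1160), Cd24a (4395, the others 1102 to 1524), Gal (4083, the others 1365 to 1643) and Timp1 (2352, the others 440 to 617). It also held the 1.03 of Steap4, which is 1 recovered read, where the others were at 0. PBS ZT2 replicate 2 stood high for Ghsr (1225, the others 342 to 477) and Per1 (592, the others 99.7 to 126) and low for Avp (8.20, the others 27.7 to 29.7) and Bcl3 (35.9, the others 86.5 to 94.8). PBS ZT2 replicate 4 stood high for Cebpd (9.89, the others 3.08 to 3.61). Of these genes only Steap4 was past the threshold in the pooled comparison, and it remained so without PBS ZT2 replicate 1.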

How the results depend on the processing

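For both times pooled, array weights gave 81 genes (68 higher, 13 lower), DESeq2 61 (55 higher, 6 lower), and leaving out 1 library 3 to 17. The replicate block gave 33 genes (30 higher, 3 lower) with the number as a pair within each time and 21 (20 higher, 1 lower) across both times. Same-numbered libraries did not all deviate together (correlations 0.26, -0.19 and 0.23 at ZT2 and 0.44, 0.37 and 0.07 at ZT14). Different-numbered libraries gave correlations of -0.30 to 0.27 at ZT2 and -0.41 to 0.19 at ZT14. At ZT14 each PBS library deviated most like the leptin library of its own number. At ZT2 this held for PBS replicates 1 and 3 and not for replicate 2. The titles call the number a collection, and whether it pairs the libraries is not known. The other 8 settings gave 9 to 12 genes. All 10 genes kept their call under both pseudocounts, the filter at 50, TMM, edgeR, no ZT term, DESeq2, array weights and both blocks. Ptger2 lost its call with no filter, and Gbp7, Ripk1 and Ptger2 in the fit to all 25 libraries. At ZT2 the count was 48 with array weights, 7 and 5 with the block within and across times, 20 with DESeq2, 6 with no filter, and 1 to 3 without 1 library. At ZT14 it was 66 with array weights, 6 with DESeq2, 0 in the fit to all 25 libraries, and 0 to 2 without 1 library. The difference between times stayed at 0 in all these settings. The difference between genotypes reached 1 with DESeq2. In the knockouts alone, with settings chosen after seeing the data, the count was 69 as a term of the fit to all 25 libraries and 18 to 35 without 1 library. The cause of these shifts was not tested. No named gene reversed its direction where it was called. Depth ranged from 5.93 to 34.0 M reads, and its effect on the counts was not tested.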

Other observations

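The 10 genes that rose were also read in the 55 libraries of the other experiments in the same table, which differ in collection and state, so that values stand side by side with no comparison. Steap4 reached the lowest leptin value of the controls (116) in 1 of the 55, a RiboTag library, and Rnf122 also in 1 RiboTag library. Socs2 and Arid5b did so in 4 each, Arid5a in 6, Ptger2 in 8, Gbp7 and Elovl1 in 9 each, Gcc1 in 12 and Ripk1 in 13. RiboTag libraries made up 11 of the 12 for Gcc1 and 0 of the 4 for Socs2.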
